A study of Mus musculus with 20 samples.

Results

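The step from 8 to 12 hours after estradiol withdrawal was described here from the open chromatin of a mouse culture named ER-Hoxa9-Lys-GFP. Peaks were taken from the 8 h and the 12 h list, and a peak of either list counted as shared when a peak of the other list overlapped it by at least 1 bp. The 2 lists held 55176 peaks at 8 h and 57666 at 12 h, together 112842 of the 504887 peaks in the 10 lists of the series. Peaks found in only 1 of the 2 lists were then divided by the 24 h list. A 12 h peak without an 8 h peak was held new when the 24 h list had it too. An 8 h peak without a 12 h peak was still absent when the 24 h list lacked it too, and returned when the 24 h list had it.

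The series assayed 20 samples by ATAC-seq, a method that marks accessible DNA by inserting sequencing adapters with the transposase Tn5. All samples came from the same cells of the C57BL/6 strain, named for an ER-Hoxa9 fusion and a Lys-GFP reporter and grown in vitro in medium conditioned with SCF, a growth factor for blood progenitors. The 0 h samples were kept with estradiol (E2), and the other 9 times, 4, 8, 12, 24, 36, 48, 72, 96 and 120 h, followed 3 washes and a change to medium without E2, with 2 samples each. Per the labels' protocols, the nuclei of each preparation were shared between 2 parallel Tn5 reactions, so the 2 samples of a time may be technical replicates. The sources used here do not give whether the cells are a single clone or what drives the fusion. The deposited data gave 1 peak list for each time, shared by both samples, without read counts. No spread between replicates, no test and no p-value is therefore possible, and the read depth is unknown. Shares are given with 95% Wilson intervals, which reflect counting error alone.

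Hoxa9 is a homeobox transcription factor that keeps myeloid progenitors immature. As background, a fusion with the ligand-binding part of the estrogen receptor is active only while E2 is present, and its loss lets such cells mature towards granulocytes and monocytes. Maturation is driven by factors such as C/EBP family members and PU.1, which open enhancers of granule, receptor and phagocyte genes, while enhancers of stem cell and lymphoid genes close. Most such elements lie far from promoters, in introns or between genes.

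The labelled cells were checked against their markers in both lists. Peaks were assigned to myeloid and progenitor genes at both times: Mpo, the granule peroxidase of promyelocytes, had 5 peaks in the 8 h list and 6 in the 12 h list, and Kit, the SCF receptor, had 14 at each. Itgam, the integrin chain CD11b, went from 6 to 8 peaks. Csf1r, the macrophage growth factor receptor, had 4 and then 5. The erythroid factor gene Klf1 and the mast cell gene Ms4a2 had no peak at either time. Lyz2, the lysozyme gene at which the reporter is named, had 3 peaks at each of 0, 4, 8, 12, 24 and 36 h and none of them changed at the step. Hoxa9 itself had no peak assigned to it in the lists analysed here, so its own locus gave no check.

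Of the 12 h peaks, 11047 had no 8 h peak, which is 19.2%. Of the 8 h peaks, 8641 had no 12 h peak, which is 15.7%. The newly listed peaks covered 4.88 Mb and the peaks that left the list covered 4.09 Mb, against 31.0 Mb for the whole 12 h list. The 12 h list was longer than the 8 h list, and the excess of new over gone peaks went with that. When the 8, 12 and 24 h lists were each cut to their widest 55176 peaks, 9815 peaks were new and 9880 were gone.

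Of the newly listed peaks, 7237 were also in the 24 h list, which is 65.5% (64.6 to 66.4) of them and 12.5% of all 12 h peaks. Of the peaks that left the list, 4232 were still missing at 24 h, which is 49.0% (47.9 to 50.03) of them and 7.67% of all 8 h peaks. The other 4409, or 51.0%, were listed again at 24 h. Held new peaks thus outnumbered still absent peaks by count, but with lists of equal length they numbered 5890 against 6192. The direction of the balance between the 2 sets therefore depended on the length of the lists.

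Most peaks of both sets had a history before 8 h. Of the 7237 held new peaks, 62.8% had already been listed at 0 or 4 h and only 2695, or 37.2%, were listed at neither. Of the 4232 still absent peaks, 47.9% had been listed at 0 h and 30.9% (1309 peaks) at both 0 and 4 h. Among peaks shared by the 8 and 12 h lists, 86.8% were listed at 0 h. After 24 h the sets differed more. At 36 h the held new peaks were listed in 73.0% of cases and the still absent peaks in 22.4%, against 83.9% for the shared 12 h peaks. By 120 h the values were 24.6%, 8.88% and 37.0%. Returned peaks followed the held new peaks closely, with 67.7% listed at 36 h and 23.7% at 120 h.

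**Figure D1:**
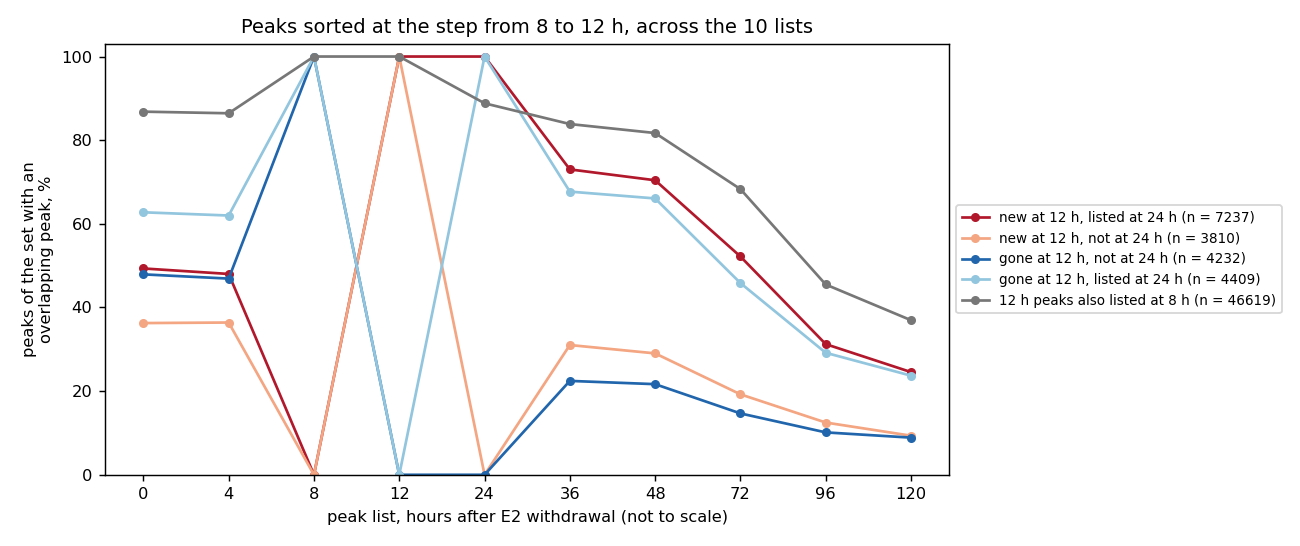
The share of each set of peaks with an overlapping peak (y axis, %) is plotted for each of the 10 lists (x axis, hours after E2 withdrawal, not to scale). The values at 8, 12 and 24 h are fixed by how the sets were made. Outside them, the held new peaks (73.0% at 36 h) lie well above the still absent peaks (22.4%), whereas at 0 h the 2 sets lie close together at 49.3% and 47.9%.

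The sites with a single change at the step were then taken apart from those that came and went. Of the 12 h peaks, 1606 (2.79%) were absent at 0, 4 and 8 h and listed at 12, 24, 36 and 48 h. These are called onset sites below. Of the 8 h peaks, 910 (1.65%) were listed at 0, 4 and 8 h and absent at 12, 24, 36 and 48 h, and are called offset sites. Of the offset sites, 874, or 96.0%, were not listed again at 72, 96 or 120 h. The late lists were shorter, with 46837, 29806 and 23620 peaks at these times against 59562 at 48 h. Absence from them can therefore also go with list length. The onset sites had mixed later courses. Of them, 462 (28.8%) stayed in every list to 120 h, 481 (30.0%) were last listed at 72 h and 367 (22.9%) at 48 h. With the 7 lists from 0 to 48 h each cut to their widest 54717 peaks, onset sites numbered 1400 and offset sites 1538, so which of the 2 kinds was more frequent also turned with list length.

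Sites that changed mostly lay away from promoters, meaning more than 1000 bp from the transcription start site (TSS) given with each peak. Promoter peaks made up 19.9% (19.5 to 20.3) of the shared 12 h peaks, 12.6% (11.9 to 13.4) of the held new peaks and 10.6% (9.74 to 11.6) of the still absent peaks. The onset sites held 6.10% (5.03 to 7.38) and the offset sites 6.81% (5.35 to 8.64). Returned peaks, missing at 12 h but back at 24 h, had a promoter share of 18.5%, near that of the shared peaks. The median distance to the TSS was 14684 bp for shared 12 h peaks, 18762 bp for held new and 19796.5 bp for still absent peaks. For onset and offset sites it was 21706 and 21603.5 bp. Introns held 45.6% of onset sites and 46.2% of offset sites, against 38.4% of shared 12 h peaks.

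Onset and offset sites differed in the repeats they lay on. As background, many mouse enhancers sit on old copies of retroviruses and other mobile elements, which the deposited annotation names where a peak falls on one. A repeat was named for 28.0% (25.9 to 30.3) of onset sites and 15.2% (12.98 to 17.6) of offset sites, and for 17.5% of the shared 12 h peaks. ERVL-MaLR elements, remnants of retrovirus-like transposons, were named at 7.29% (6.11 to 8.66) of onset and 3.52% (2.50 to 4.92) of offset sites. The L1 family of long interspersed elements stood at 5.6% (4.58 to 6.84) and 2.53% (1.69 to 3.76). ERVK elements stood at 3.67% (2.86 to 4.71) and 1.87% (1.17 to 2.97), and those intervals overlap. The ERVK long terminal repeat RLTR45 was named at 13 onset sites (0.81%, 0.47 to 1.38) and at 0.47% of shared 12 h peaks. Of the 910 offset sites 0 had it, which allows a share of up to 0.33%. B2, a short interspersed element, showed another order. It was named at 2.30% of onset and 1.98% of offset sites, below the 3.48% of shared 12 h peaks, but at 5.22% of held new and 6.10% of still absent peaks, which include sites that come and go.

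**Figure D2:**
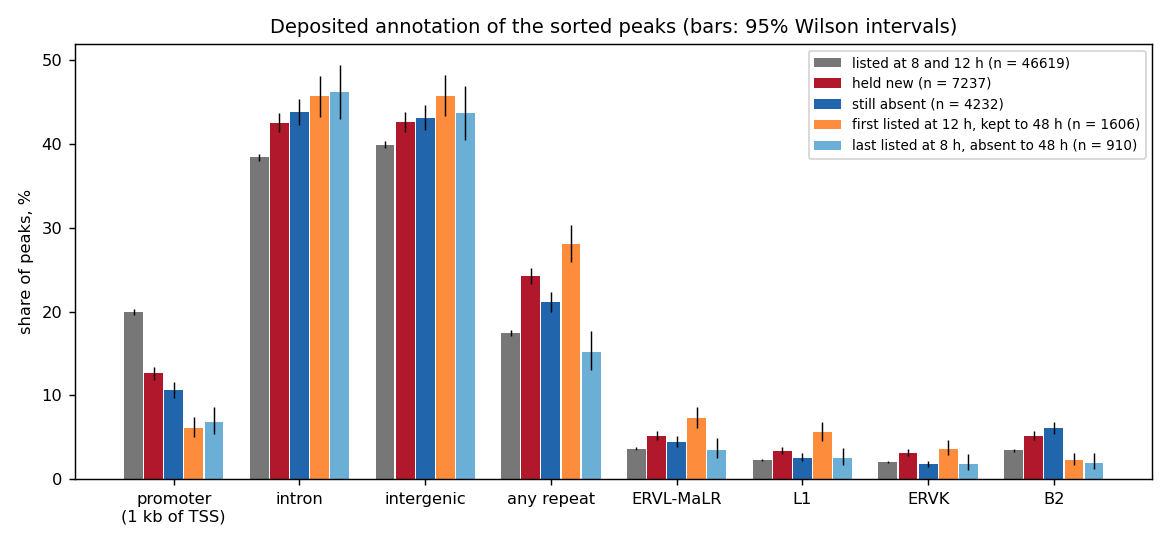
Bars give the share of peaks (y axis, %) with each deposited annotation (x axis) for shared 12 h peaks, held new and still absent peaks, and onset and offset sites, with 95% Wilson intervals. Promoter shares fall from 19.9% to between 6.10% and 12.6% in the sets that changed, and repeats are named at 28.0% of onset but 15.2% of offset sites.

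Peaks that changed were narrow. The median width was 490 bp for shared 12 h peaks, 370 bp for held new, 308 bp for new peaks not held at 24 h and 339 bp for still absent peaks. Onset sites had a median of 339 bp and offset sites 401.5 bp. Among 8 h peaks of at most 300 bp, 28.8% (28.0 to 29.6) had no 12 h peak. That share was 14.0% at over 300 to 600 bp and 9.28% at over 600 to 1000 bp. It was 13.8% (12.8 to 14.8) among peaks over 1000 bp, so the widest peaks left the list more often than those of over 600 to 1000 bp.

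The wide peaks that left the 12 h list mostly came back. Of the 35155 8 h peaks that were also listed at 4, 24 and 36 h, 1932 (5.50%) were missing from the 12 h list alone. Their share was 9.48% (8.70 to 10.3) at up to 300 bp, 4.47% (4.16 to 4.80) at over 300 to 600 bp and 7.36% (6.51 to 8.31) over 1000 bp. The same count gave 6.84% for the 8 h list and 3.75% for the 24 h list. Among the 1309 peaks listed at 0, 4 and 8 h and absent at 12 and 24 h, 70 of the 84 wider than 1000 bp (83.3%) were listed again later, against 143 of 672 (21.3%) at over 300 to 600 bp and 119 of 328 (36.3%) at up to 300 bp. Absence from the 12 h list was therefore not the same as lasting absence. What sets such single absences was not tested.

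**Figure D3:**
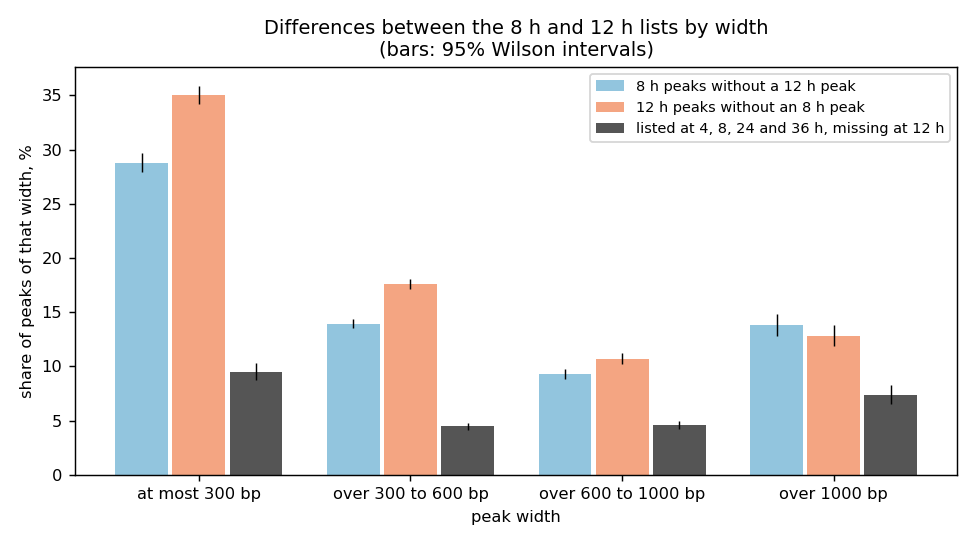
For 4 classes of peak width (x axis), bars give the share (y axis, %) of 8 h peaks without a 12 h peak, of 12 h peaks without an 8 h peak, and of peaks listed at 4, 8, 24 and 36 h that are missing at 12 h, with 95% Wilson intervals. All 3 shares are highest for peaks of at most 300 bp and higher over 1000 bp than at over 600 to 1000 bp.

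The widest promoter peaks showed this at named genes. The 8 widest promoter peaks among the 1309 listed at 0, 4 and 8 h and absent at 12 and 24 h stood at Zdhhc14, Rock2, Mpc1, Zfhx3, Itga4, Ppm1l, Arih2 and Arfgef1. All 8 were listed again at 96 and 120 h. Itga4 encodes an integrin chain of progenitor adhesion. Its peak of 1554 bp (mm10, chr2:79254632-79256185) was in every list except those of 12 and 24 h. Of the 8 widest promoter peaks absent at 0, 4 and 8 h and listed at 12 and 24 h, 6 were in all 7 lists from 12 h on. These included Polr1d, a subunit of RNA polymerases I and III (1725 bp, chr5:147076165-147077889), Cab39 (1691 bp), Phf10 (1663 bp) and Arhgap10 (1499 bp). The Smyd3 peak was missing at 72 h and the Rreb1 peak at 72 and 120 h. Of the 21 onset promoter peaks over 1000 bp, 19 were still listed at 120 h. Of the 5 widest distal peaks listed at 0, 4 and 8 h and absent at 12 and 24 h, those assigned to Grk3, a receptor kinase gene (1498 bp, 20114 bp before the TSS), and Gm7550 (1287 bp) were in none of the later lists. The other 3, at Tcte3, Rcn3 and Blk, were listed again from 36 or 48 h. Of the 5 widest distal peaks absent at 0, 4 and 8 h and listed at 12 and 24 h, those of Stk40 (1297 bp, intron 1) and Trpm1 (1189 bp) were listed throughout to 120 h. Those at Klf9, Sall3 and Ccnl1 were missing from at least 1 later list.

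The narrower onset promoters named receptors of myeloid cells. In all, 98 onset sites lay at promoters, and 57 of them were listed at 120 h. Among those listed in every list from 12 to 120 h were promoters of paired immune receptors: Pilrb2 (1466 bp peak), Lilrb4a (321 bp) and Sirpb1b (300 bp), with the promoter peaks of Gm5150 (312 bp) and LOC100038947 (293 bp). Tlr13, a Toll-like receptor for bacterial RNA (273 bp, 120 bp before the TSS), Ptger4, a receptor for prostaglandin E (568 bp, 124 bp before), and Slc31a2, a copper transporter (299 bp), had the same course. So had Mrgpra2a (810 bp) and Mrgpra2b (685 bp), receptors of the Mas-related family, and Stfa1, a cysteine protease inhibitor of the stefin A cluster (380 bp). The promoter of Hal, which encodes a histidine-degrading enzyme, was listed at 12, 24, 36, 48, 96 and 120 h but not at 72 h. Ido1, which encodes a tryptophan-degrading enzyme (643 bp), was listed from 12 to 48 h only. These genes were picked out after their values were seen. Several belong to families of near-identical copies, where reads may be shared between genes.

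At 62 promoters the site was an offset site, and 11 of these were listed at 120 h. Rag1, the recombinase gene of lymphocyte precursors, had a 350 bp peak 21 bp before the TSS (chr2:101649379-101649728). It was listed at 0, 4 and 8 h and in none of the 7 later lists. Its neighbour Rag2, which encodes the partner subunit, had an offset site with the same course (431 bp, chr2:101621641-101622071). This site lay 2892 bp before the Rag2 TSS, outside the listed gene, although the deposited annotation names an intron. In all, 2 Rag2 peaks were still absent, while 3 were held new and 2 were new at 12 h but not held. Promoter offset sites that never returned also stood at Lgals1 (401 bp) and Lgals2 (813 bp), galectin genes on chromosome 15, and at C5ar2 (290 bp), a complement receptor gene. Others were at Nod1 (285 bp), a sensor of bacterial peptidoglycan, Sdc4 (397 bp), a syndecan, Mapk14 (208 bp), which encodes the kinase p38 alpha, and Ptpre (638 bp), a protein tyrosine phosphatase gene.

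The sequences of 6 of these promoters are shown because their peaks are onset or offset sites and their start sites are known. All but the Hal peak, which is missing at 72 h, changed only at this step. Each is the 250 bases before the TSS from RefSeq (assembly GRCm38.p6), 5′ to 3′ on the gene's strand, in lower case. Capitals mark matches, on either strand, to 6 short patterns: TTGCNNAA for C/EBP, GAGGAAGT for PU.1, TGTGGT for RUNX, TGANTCA for AP-1, TTCNNNGAA for STAT sites and TATAAA for the TATA box. The 6 were chosen after their values were seen. Onset promoters come first, then the offset promoters Rag1 and Ptpre. The positions are chr7:47452165-47452414 on the minus strand for Mrgpra2a, chr16:36276898-36277147 on the plus strand for Stfa1 and chr10:93488518-93488767 on the plus strand for Hal. They are chr3:51660929-51661178 on the plus strand for Mgst2, chr2:101649533-101649782 on the minus strand for Rag1 and chr7:135605578-135605827 on the plus strand for Ptpre.
Mrgpra2a: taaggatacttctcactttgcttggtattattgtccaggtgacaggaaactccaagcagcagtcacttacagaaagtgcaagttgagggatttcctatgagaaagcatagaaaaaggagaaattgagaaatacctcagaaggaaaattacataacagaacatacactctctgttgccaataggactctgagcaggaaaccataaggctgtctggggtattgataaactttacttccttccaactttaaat
Stfa1: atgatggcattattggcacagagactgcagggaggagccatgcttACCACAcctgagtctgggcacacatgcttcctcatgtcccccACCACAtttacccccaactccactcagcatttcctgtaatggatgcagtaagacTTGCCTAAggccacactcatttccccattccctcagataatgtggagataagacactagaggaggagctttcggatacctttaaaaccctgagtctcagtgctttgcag
Hal: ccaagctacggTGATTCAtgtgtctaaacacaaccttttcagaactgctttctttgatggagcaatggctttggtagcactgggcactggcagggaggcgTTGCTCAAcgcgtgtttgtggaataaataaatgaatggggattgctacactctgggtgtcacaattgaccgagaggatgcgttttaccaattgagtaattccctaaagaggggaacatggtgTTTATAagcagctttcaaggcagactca
Mgst2: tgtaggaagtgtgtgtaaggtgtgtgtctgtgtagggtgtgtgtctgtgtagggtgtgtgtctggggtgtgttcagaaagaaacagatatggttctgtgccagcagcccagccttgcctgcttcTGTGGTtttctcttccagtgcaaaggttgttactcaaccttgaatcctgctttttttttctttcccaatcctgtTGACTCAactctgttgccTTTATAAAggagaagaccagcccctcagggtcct
Rag1: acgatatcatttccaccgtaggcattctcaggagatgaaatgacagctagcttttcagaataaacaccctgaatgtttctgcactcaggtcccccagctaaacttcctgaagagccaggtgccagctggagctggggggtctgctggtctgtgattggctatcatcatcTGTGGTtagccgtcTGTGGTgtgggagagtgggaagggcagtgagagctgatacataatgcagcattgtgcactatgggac
Ptpre: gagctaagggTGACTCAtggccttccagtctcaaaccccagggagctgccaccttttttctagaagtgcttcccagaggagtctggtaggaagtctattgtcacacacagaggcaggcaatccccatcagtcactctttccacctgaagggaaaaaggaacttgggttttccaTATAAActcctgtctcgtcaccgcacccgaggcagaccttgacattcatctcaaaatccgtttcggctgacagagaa

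The Stfa1 promoter held a C/EBP match 109 to 102 bases before the TSS and 2 RUNX matches, and its 12 h peak covered all 250 bases. Hal held a C/EBP match 150 to 143 bases before its TSS and an AP-1 match farther out. Mgst2, which encodes a microsomal glutathione transferase, held an AP-1 match 52 to 46 bases before the TSS, a RUNX match and overlapping TATA matches on the 2 strands. In Rag1 the only matches were 2 for RUNX, at 81 to 76 and 67 to 62 bases before the TSS, and both lay inside the peak of the 8 h list. In Ptpre the AP-1 match, 240 to 234 bases before the TSS, lay inside the peak, which ended before the TSS. Mrgpra2a held no match, and its 250 bases were identical to those of Mrgpra2b at 250 of 250 positions, so reads in this window cannot be told apart between the 2 genes.

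Over all onset promoters the same patterns gave small counts. Of the 80 RefSeq windows overlapped by an onset site, 14 held a C/EBP match, which is 17.5% (10.7 to 27.3), against 7.76% (7.23 to 8.31) of the 9400 windows overlapped by shared 12 h peaks and 9.56% of all 32851 windows. The genes of onset windows with a C/EBP match included Stfa1, Hal, Pilrb2, Ankrd22 and Ifi206, and also Esr1, Hpn, Kazald1, Plin1 and Xpo6. Of the 35 windows overlapped by an offset site, 3 held one, or 8.57% (2.96 to 22.4). RUNX matches stood in 3 of 80 onset windows (3.75%, 1.28 to 10.5) and 7 of 35 offset windows (20%, 10.04 to 35.9), against 11.4% of windows with shared peaks and 14.0% of all windows. AP-1 matches stood in 6 onset windows (7.5%) and 5 offset windows (14.3%), against 4.12% of windows with shared peaks and 6.75% of all. PU.1 matches stood in 5 onset windows (6.25%) and in 0 of 35 offset windows, which allows a share of up to 8.57%, against 3.09% of windows with shared peaks. STAT patterns stood in 6.25% of onset and 5.71% of offset windows, against 5.66% of windows with shared peaks and 7.02% of all. TATA matches had the same onset and offset shares, against 5.57% and 12.4%. These are shares of letter matches, and whether a factor bound there was not measured. A gene can have several windows, so windows are not independent and the intervals may be too narrow.

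The balance was then counted gene by gene. Over all 18408 genes with a peak at 8 or 12 h, 4373 (23.8%) had more held new than still absent peaks and 2324 (12.6%) had fewer, and the median gene had a difference of 0. With lists of equal length the counts were 3352 and 3616. The genes with most held new peaks were Gse1 with 10, and Tns3, Syne1, Mir6388, Oxr1 and Gm30214 with 8 each, followed by Rreb1, Lrrc8d, Trps1 and Mir5127 with 7. With lists of equal length the balance of Mir6388 and Gm30214 turned negative and Lrrc8d had 4 of each kind. The genes with most still absent peaks were Gm17746 with 7, Galnt2 and Fut8 with 6, and B930025P03Rik, Sall3, Bcor and Slc39a11 with 5.

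Oxr1, an oxidation resistance gene on chromosome 15, had most onset sites, with 5, and no still absent peak. Its peak count over the 10 lists ran 15, 17, 17, 25, 25, 21, 27, 15, 9 and 4, highest between 12 and 48 h. The lists themselves were shorter after 48 h. The 5 sites lay in introns, between 149815 bp before and 1310 bp after the nearest TSS. Syne1 encodes the nuclear envelope protein nesprin-1. It had 13 peaks at 8 h, 18 by 12 h and 26 by 24 h, with 4 onset sites. Mgst2 and Slc7a11, both on chromosome 3, and Trps1 also had 4 each. Slc7a11 encodes the cystine transporter that feeds glutathione synthesis, and its peaks went from 20 to 23. Nrp2, which encodes the receptor neuropilin-2, and Slc31a2 had 3 onset sites each and no still absent peak. Galnt2, which encodes an enzyme of mucin-type glycosylation, went from 12 peaks to 8, and had 1 onset site and no offset site. Acsl1, a fatty acid activating enzyme gene, had 3 offset sites, at 80414 and 1693 bp before its TSS and in intron 5.

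Gene lists for blood cell programs were compared next, each by the held new peaks among its 12 h peaks and the still absent peaks among its 8 h peaks. Over all genes these shares were 12.5% and 7.67%. The median gene of each of the 15 lists had a difference of 0, as had the median of all genes. Of the 15 lists, 8 had more held new than still absent peaks, but with lists of equal length only 2 did. Those 2 were the secondary and tertiary granule genes and the genes of mast cells, basophils and eosinophils. The counts of each list are given below in both versions, and those of single genes with the lists as deposited unless stated.

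Secondary and tertiary granule genes, which encode proteins packed in late granulocyte precursors, had 6 held new peaks of 34 (17.6%, 8.35 to 33.5) and 2 still absent of 31. With equal lengths these were 5 and 3. Of the 16 genes with a peak, 4 (25%) had more held new peaks and 1 (6.25%) had fewer. Over all genes these shares were 23.8% and 12.6%, so the first was near that of all genes. Itgam had 2 held new peaks and no still absent peak, and its onset site lay in intron 2 (343 bp, chr7:128067870-128068212), listed to 120 h. Chil3, the chitinase-like protein Ym1, had an onset site 3243 bp before its TSS on an RMER13B element, also listed to 120 h, and its peak count went from 1 at 0, 4 and 8 h to 2 at 12 h and 3 at 24 h. Ltf, the lactoferrin gene, had a single peak at 8 h, none at 0, 4, 12, 24 and 36 h and then 1, 3, 3 and 4.

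Primary granule genes had 5 held new peaks of 47 and 1 still absent of 43, but 3 and 4 with equal lengths. Srgn, the granule proteoglycan serglycin, supplied 3 of the held new peaks and went from 6 to 9 peaks. Genes of the neutrophil surface and chemotaxis had 13 held new and 11 still absent peaks, or 11 and 15 with equal lengths, with 7 genes having more held new peaks and 7 having fewer. They had 5 onset sites and 1 offset site, and with equal lengths these were also 5 and 1. Il1r2, the decoy receptor for interleukin 1, had 7 peaks at 8 h, and then 10, 12 and 14 in the lists of 12, 24 and 36 h. Genes of the NADPH oxidase, which makes the oxidative burst, had 1 peak held new and 1 still absent, or 1 and 2 with equal lengths. Of inflammatory and NF-kB genes, Il6 went from 9 to 12 peaks. Rel went from 6 to 8, but had no held new peak with equal lengths. Tnip1, an inhibitor of NF-kB signalling, had 2 still absent peaks and went from 8 to 6. The list as a whole had 12 held new and 9 still absent peaks, and 7 and 16 with equal lengths.

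Lymphoid genes had the highest still absent share of the 15 lists, 11 peaks of 62 (17.7%, 10.2 to 29.0), against 7 held new of 65. With equal lengths they had 15 and 5. Of the 16 genes with a peak, 6 had fewer held new than still absent peaks (37.5%) and 2 had more (12.5%). Over all genes these shares were 12.6% and 23.8%. Genes with fewer made up 33.3% of the progenitor, myeloid transcription factor and Hoxa9 target lists and 26.1% of housekeeping genes. Gata3, a factor of T cell fate, had an offset site 284490 bp from its TSS. Its peaks numbered 5, 4 and 6 at 0, 4 and 8 h. They then numbered 5, 4, 4 and 2 at 12, 24, 36 and 48 h. Cd3e, a chain of the T cell receptor complex, had its only 8 h peak still absent, but had no peak at 0 h and a peak again at 36 and 72 h. The list had 3 offset sites and no onset site.

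Progenitor and stem cell genes had 16 still absent peaks of 168 (9.52%) and 11 held new of 174 (6.32%, 3.57 to 11.0), the latter below the 12.5% of all genes. With equal lengths these were 20 and 11. With 36 h in place of 24 h the balance turned, to 2 more held new than still absent peaks. Their single-change sites were 7 offset and 3 onset, or 10 and 3. Erg, an ETS factor of stem cells, had 2 offset sites in intron 2, of 706 bp (3335 bp from the TSS, chr16:95455661-95456366) and 253 bp, and no held new peak. Lyl1 had 2 still absent peaks and Hhex 2 held new peaks. Genes listed as Hoxa9 and Meis1 targets had 21 held new and 17 still absent peaks, turning to 20 and 24 with equal lengths, and 7 onset and 7 offset sites. Foxp1 and Trib2 each had 3 held new peaks and 1 still absent, but 3 of each kind with equal lengths.

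Of the other cell types, macrophage and monocyte genes had 18 held new and 13 still absent peaks, and 15 and 17 with equal lengths. Msr1, the macrophage scavenger receptor, had 4 peaks at 8 h, 7 at 12 h and 8 at 24 h, and all 3 of its held new peaks were onset sites. They lay in intron 5 and at 2043 and 7482 bp before its TSS. With equal lengths Msr1 had 1 held new peak. Klf4, a factor of monocytes, had 4 held new and 2 still absent peaks. Maf, another macrophage factor, had 3 offset sites and 1 onset site. Genes of mast cells, basophils and eosinophils had 7 held new peaks of 56 and 3 still absent of 49, and 7 and 5 with equal lengths. Il4 had an onset peak at its promoter (415 bp, 76 bp before the TSS), listed at 12, 24, 36, 48 and 96 h. Il5ra went from 3 to 5 peaks. Erythroid and megakaryocyte genes had 7 of each (4 and 8), with Zfpm1, a GATA cofactor, having 4 still absent and 1 held new. Non-blood genes had 3 held new and 2 still absent peaks (3 and 6).

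Myeloid transcription factor genes had 34 held new peaks of 333 and 35 still absent of 332 (10.5%), with 12 genes having more held new peaks, 12 fewer and 12 as many. With equal lengths they had 30 and 49, and with 36 h in place of 24 h they had 13 more held new than still absent peaks. Cebpa, the C/EBP alpha gene, had 8 peaks at 8 and at 12 h, but 3 of the 8 h peaks were still absent and 2 of the 12 h peaks were new and not held. With 36 h in place of 24 h it had 1 more held new than still absent peak. Cell cycle genes had 11 of each (9 held new and 13 still absent with equal lengths), and Ccnd3, cyclin D3, had 3 held new and 1 still absent. Housekeeping genes, taken as a reference, had 5 held new and 7 still absent peaks, or 1 and 12. They had 1 onset and 1 offset site.

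**Figure D4:**
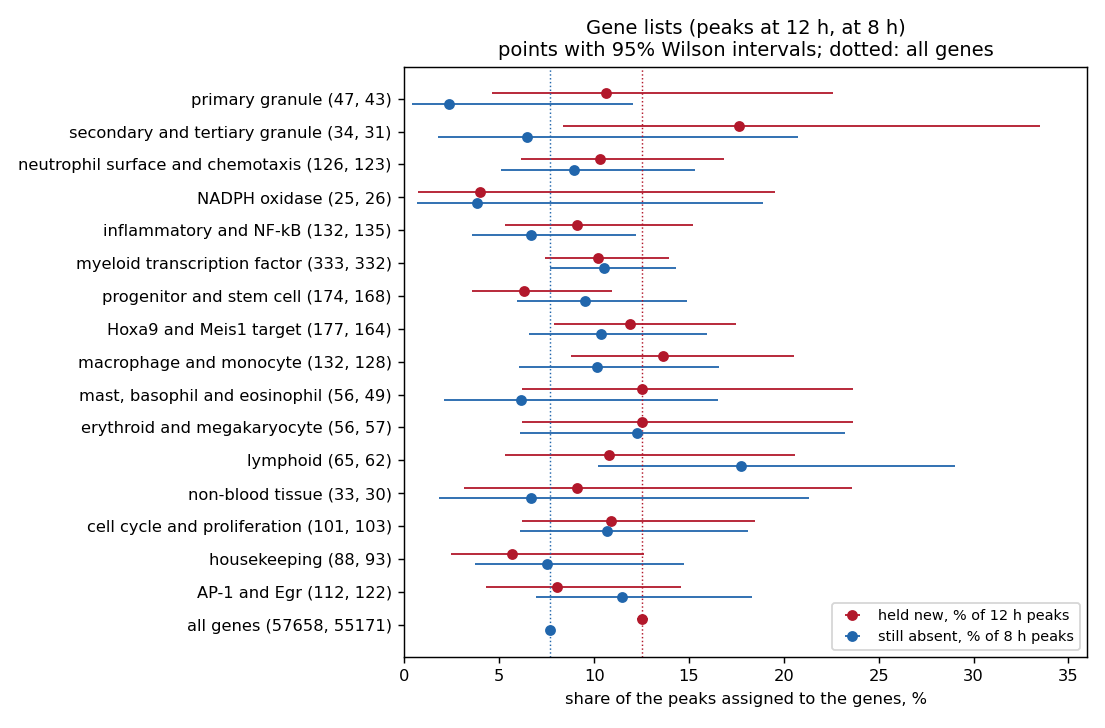
For each gene list the share of 12 h peaks that are held new and of 8 h peaks that are still absent (x axis, %) is given with its 95% Wilson interval, and dotted lines mark all genes. Lymphoid genes stand highest for still absent peaks (17.7%) and secondary and tertiary granule genes for held new peaks (17.6%), with wide intervals from few peaks.

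Genes of AP-1 and Egr factors, which respond early to growth signals, had more offset than onset sites. This list of 16 genes was put together after their values were seen and supports nothing by itself. It had 9 offset and 2 onset sites, and the same numbers with equal list lengths. Of its 122 8 h peaks, 14 were still absent (11.5%, 6.96 to 18.3), and of its 112 12 h peaks 9 were held new. Offset sites stood at Jdp2 (3), Egr1 (2), Fosl2, Jun, Junb and Batf3. Jdp2 encodes a repressor that pairs with Jun, and Egr1 a factor that favours macrophage fate. The 2 Egr1 sites were neighbours, 31533 and 32072 bp from the TSS. The Batf3 site lay in intron 2 (641 bp, 4590 bp from the TSS) and the Junb site 2423 bp before its TSS. None of these 9 sites was listed after 8 h. At Atf3, 2 peaks were still absent, and its count went from 5 to 3.

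Fos, Jdp2 and Batf lie side by side on chromosome 12 and showed both directions. Of the 35 sites assigned to them at 8 or 12 h, 21 were shared, 5 were held new and 4 were still absent. Another 3 were returned and 2 were new at 12 h but not held at 24 h. The 3 Jdp2 offset sites lay 53209 and 27566 bp before its TSS (348 and 297 bp wide) and 26149 bp after it, in intron 2 (591 bp). Jdp2 had 12, 15, 12, 10, 7, 7, 8, 7, 5 and 4 peaks over the 10 lists, of which the last 3 were shorter. Batf, a partner of Jun in immune cells, went from 6 peaks to 9, having had 8 in the 0 h list, and reached 12 in the 24 h list. Of its 3 more peaks at 12 h, 1 was an onset site 27128 bp before its TSS and 1 had been listed at 0 and 4 h. The other came from an 8 h peak that was listed as 2 peaks at 12 h. Fos had an onset site 15562 bp after its TSS, listed to 96 h. The Fos promoter peak of 764 bp (chr12:85473437-85474200) was listed at every time except 12 h, another single absence.

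**Figure D5:**
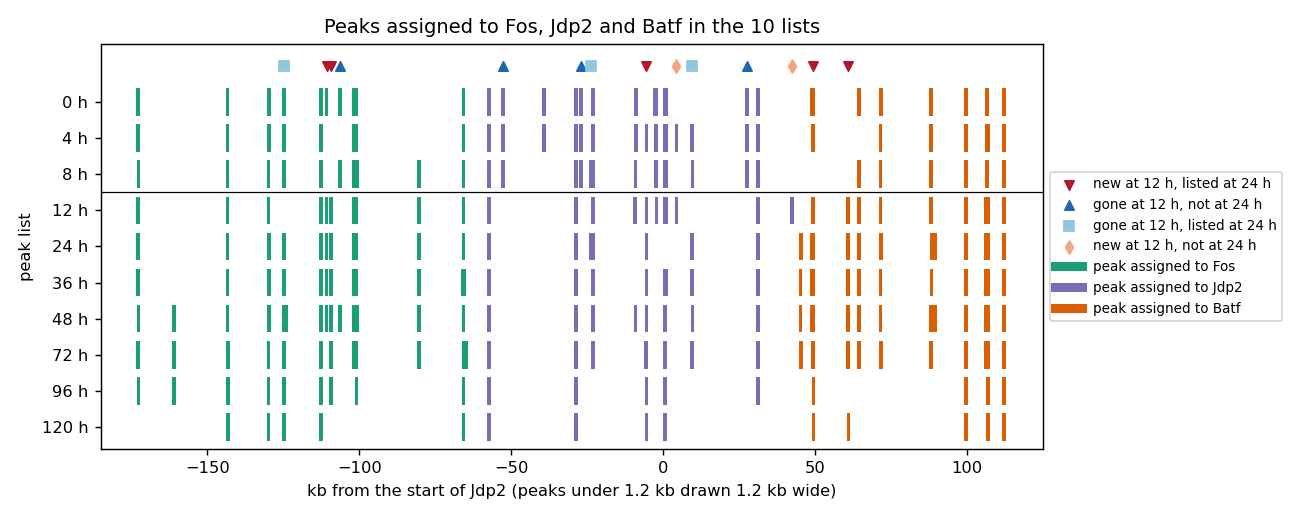
Peaks assigned to Fos, Jdp2 and Batf are drawn by position (x axis, kb from the start of Jdp2) in each of the 10 lists (y axis), with symbols above for the 14 sites that differ between the 8 and 12 h lists. The 3 Jdp2 sites marked as gone at 12 h and not at 24 h stand in the 0, 4 and 8 h lists only.

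The neighbouring steps gave the scale for these values. From 4 to 8 h, 18.6% of peaks were new and 17.6% gone, and from 12 to 24 h 21.8% were new and 15.6% gone. New peaks were held in the following list in 61.7% (60.8 to 62.7) of cases at the step from 4 to 8 h, 65.5% from 8 to 12 h and 60.5% (59.7 to 61.3) from 12 to 24 h. Peaks that left the list stayed away in the following list in 49.5%, 49.0% and 64.7% (63.7 to 65.6) of cases. The last step spans 12 h and the others 4 h, and the steps share lists with each other. With the lists from 4 to 36 h cut to equal length, the share held was 58.2%, 60.1% and 63.2%, so the step from 8 to 12 h then no longer stood highest. The share that stayed away was 55.4%, 62.1% and 64.4%.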

How the data were processed

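The authors deposited a single peak list per time, 10 in all, and the 8 h and 12 h lists belong to 4 of the 20 samples. HOMER annotated the lists against mm10, per the file headers, and coordinates are given in that build, counted from 1. Per the submitters' processing notes, the processing involved mm9, STAR 2.5, MACS2 2.0 and BWA without stated roles, and pooling and the shift of reads for Tn5 are not given in the sources used here. The deposited start, end and distance to the TSS are in bp. The score deposited for every peak is 0 (0 of 504887 differed), so peaks could not be ranked by it. Read depth is unknown.

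Peaks of different lists were shared at an overlap of at least 1 bp, a promoter peak lay within 1000 bp of its TSS, and genes were those deposited with each peak. No peaks overlapped within a list. Of the 298 genes in the 15 lists, 284 had a peak in at least 1 list. The members and the lists were chosen with earlier results of these data known. The named genes were Lyz2, Hoxa9, the 8 genes with most held new and the 8 with most still absent peaks, and up to 3 genes per list with the largest difference, of which some are not reported here. The named wide sites were the 8 widest promoter and 5 widest distal peaks first listed at 12 h or last listed at 8 h. Promoter windows came from RefSeq (GRCm38.p6). Their orientation was checked on 1672 overlapping windows of opposite strands, of which 0 disagreed. The sorting was tested on simulated data. Computations used scipy 1.17.1, pandas 2.3.3 and numpy 2.4.6 in Python 3.11.15, with matplotlib 3.10.9 for plots. Alternatives covered the overlap, a gap of 200 bp, list length, peak width, chromosomes, the promoter distance, peaks within 50 kb of the TSS and the later list.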

Additional observations from a re-analysis of the deposited data

How the results depend on the processing

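No paired analysis was possible because each peak list belongs to both samples of a time point. For the same reason leaving out a sample was not run. Requiring 50% of the narrower peak, or leaving out X, Y and unplaced sequence, kept every share, width and site count within the interval of its value in the report, or within 1.5 times it for counts.

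The shares of new 12 h and gone 8 h peaks were 20.8% and 17.3% with a reciprocal overlap of 50%, 18.4% and 15.02% with a 200 bp gap, 17.8% and 17.9% with equal list length, 19.7% and 17.4% for peaks of at least 300 bp, and 7.87% and 6.05% with the 0, 4 and 8 h lists together. The held share of new peaks and the absent share of gone peaks were 62.6% and 51.8% with reciprocal overlap, 66.6% and 47.7% with the gap, 60.0% and 62.7% with equal length, 61.0% and 54.6% for wider peaks, 58.5% and 54.5% with 36 h in place of 24 h, and 47.8% and 37.98% with both lists required. Promoter shares of held new and still absent peaks were 10.3% and 7.51% within 500 bp, 17.7% and 15.6% within 2500 bp, and 8.53% and 6.99% by HOMER's own class. The held new share was 14.0% with equal length and 14.9% for wider peaks. The still absent share was 11.8% with reciprocal overlap and 9.10% with the gap, and its median width was 356 bp with reciprocal overlap.

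Alternatives for the onset and offset sites and for single absences were chosen after seeing the data. Equal length gave 1538 offset sites and 5.09% of peaks missing at 12 h alone. It gave held shares of 58.2% and 63.2% and, from 4 to 8 h, an absent share of 55.4% for the neighbouring steps. Lists with more held new than still absent peaks numbered 2 with equal length, and 6 of the 15 lists then turned direction. Of the 61 named genes 5 did, among them Foxa1, Gm30214, Mir6388 and Rag2. With 36 h in place of 24 h, 2 lists turned (progenitor and myeloid transcription factor genes) and 2 genes (Cebpa and Rag2). With peaks within 50 kb of the TSS alone, 2 lists turned (inflammatory genes from 3 to -1 and Hoxa9 and Meis1 targets from 4 to -1) and 3 genes (B930025P03Rik, Fut8 and Trib2). A 200 bp gap turned the myeloid transcription factor list from -1 to 1. The cut by width removes the narrowest peaks of the longer lists. The cause of the other shifts was not tested.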
